A study of Caenorhabditis elegans with 6 samples.

Results

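The gene mul-1 of the nematode Caenorhabditis elegans was followed through an RNA sequencing series on X-ray exposure. It was picked by its row in the deposited gene table and is 1 of 45292 genes listed there. The series asked which genes respond to very high doses of ionizing radiation. Age-synchronized young adult hermaphrodites, 24 h past the L4 larval stage, received X-rays at 0, 200 or 400 gray (Gy), a unit of absorbed energy, from a linear accelerator, and each dose is represented by 2 libraries of total RNA from whole worms. The 0 Gy worms were the unirradiated group, and the labels name no strain, mutation or other agent for any group. How long after exposure the RNA was extracted was not known here. Nor do the labels state whether replicate libraries stem from different cultures. A p-value therefore reflects variation among the libraries themselves, possibly only technical variation.

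The protein encoded by mul-1 is mucin-like. Mucins are secreted or cell-surface proteins rich in serine and threonine, to which sugar chains are attached by O-glycosylation, and they form protective layers over epithelia. In this worm, earlier work reported mul-1 among innate immune genes induced by ionizing radiation. Worms have no adaptive immunity, and their intestine responds to microbes with lysozymes, C-type lectins and other secreted effectors, under the control of pathways such as the p38 MAP kinase, insulin/IGF and TGF-beta pathways.

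On the WBcel235 build, mul-1 lies on the minus strand of chromosome IV, from 4121342 to 4123166 in the Ensembl annotation. Its longer isoform, F49F1.6a.1, has 6 exons of 111 to 271 bases and encodes 259 amino acids. The first exon runs from 4122896 to 4123166 and holds the 146-base 5′ UTR and the start codon. The last exon runs from 4121342 to 4121467 and ends in a 3′ UTR of 29 bases. The shorter isoform, F49F1.6b.1, starts within the second exon, has 5 exons and encodes 189 amino acids. The deposited table gives mul-1 as 1 row, from 4121371 to 4123020, with a length of 780 bases. These are the coding limits and the coding length, stop codon included, of the longer isoform, so the isoforms were not counted apart. Below, the deposited length of any gene is called its coding length, although only that of mul-1 was compared with the annotation. No other annotated gene overlaps mul-1 on either strand, so no neighbour could share its reads by position.

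The libraries held 9554479 to 12315765 counted reads in all. In the 0 Gy libraries mul-1 had 134 and 164 reads, with exact 95% Poisson intervals of 112 to 159 and 140 to 191 that cover counting error only. It had 6969 and 5980 reads in the 200 Gy libraries, and 2742 and 2648 in the 400 Gy libraries. The counts at the doses did not overlap, and the order was the same in either library of a dose: highest at 200 Gy, lower at 400 Gy and lowest at 0 Gy. Of all counted reads, mul-1 took 0.00130% and 0.00165% in the unirradiated libraries, 0.0729% and 0.0543% at 200 Gy, then 0.0223% and 0.0247% at 400 Gy.

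With library sizes scaled by trimmed mean of M-values (TMM) factors, the level of mul-1 in CPM (counts relative to the library's total) was 10.97 and 13.3 at 0 Gy. It was 972 and 576 CPM at 200 Gy, and 240.2 and 240.4 CPM at 400 Gy. The means were 12.2 ± 1.67 CPM (SD, n = 2) at 0 Gy, 774 ± 280.0 CPM at 200 Gy and 240.3 ± 0.164 CPM at 400 Gy. The difference between the 200 and 400 Gy means exceeded the SD at either dose, and the scaled values again did not overlap. Since mul-1 was chosen for its change in these libraries, this describes the values and is no test. The spread was widest at 200 Gy, where the first library stood above the second.

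**Figure D1:**
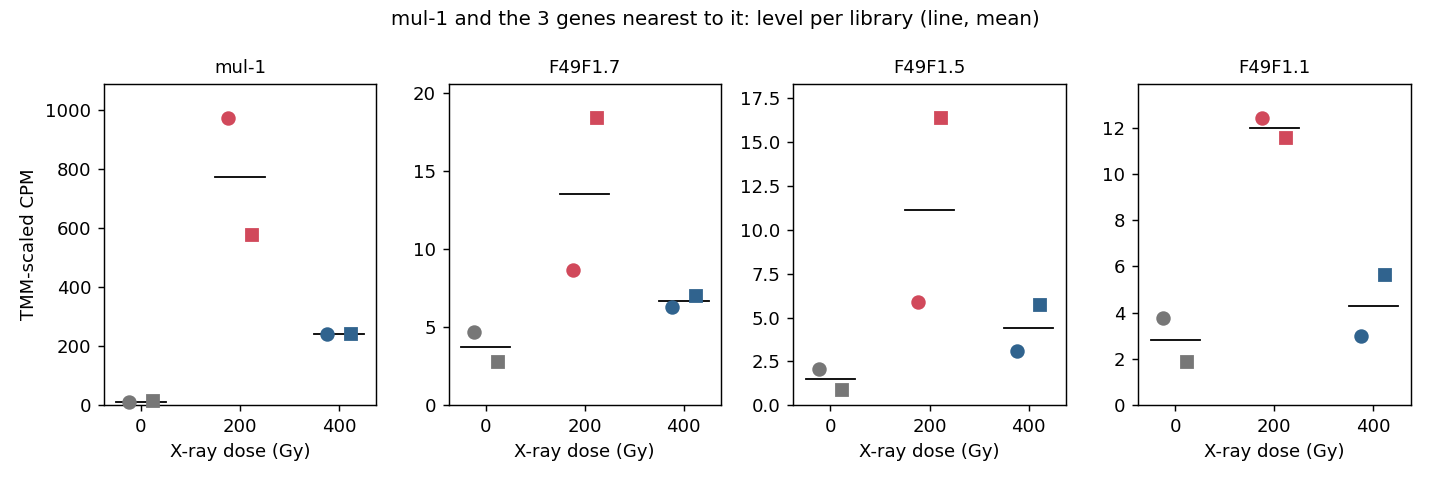
Level of mul-1 and of the 3 tested genes nearest to it on chromosome IV, in TMM-scaled CPM on the vertical axis, against X-ray dose in Gy (circle, replicate 1; square, replicate 2; line, mean of 2 libraries). The vertical axes differ: mul-1 reached 972 CPM, while the highest value of the other 3 genes was 18.4 CPM.

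Because mul-1 was chosen for its change in these libraries, its fold changes are given as a description, without a test. The log2 fold change of 200 Gy against 0 Gy was 5.99 ± 0.47 (SE of the fit), which is 63.6-fold. That of 400 Gy against 0 Gy was 4.30 ± 0.44, or 19.8-fold. Between the irradiated groups, 400 Gy against 200 Gy, it was -1.69 ± 0.39, a level 3.22-fold lower at the higher dose. In single libraries, the ratio of 200 to 0 Gy ran from 43.2 to 88.6 over the 4 pairs, and that of 400 to 0 Gy from 18.01 to 21.9. The ratio of 400 to 200 Gy lay between 0.247 and 0.417. Of the single libraries, the first at 200 Gy moved both comparisons with 200 Gy most: without it, the log2 fold change was 5.38 for 200 Gy against 0 Gy and -1.05 for 400 Gy against 200 Gy. For 400 Gy against 0 Gy the 0 Gy libraries moved it most, to 4.17 without the first and 4.43 without the second. In RNA from whole worms, a change in the number of cells that express a gene and a change in RNA per cell cannot be told apart.

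Levels per length place mul-1 among the other genes. In the deposited RPKM values, which relate the count to coding length and library total, the 0 Gy libraries held mul-1 at 16.7 and 21.2. The 200 Gy libraries held it at 935 and 696 RPKM, and the 400 Gy libraries at 285 and 316 RPKM. The median of the 14417 genes with enough counts to be tested was 16.9, 10.8 and 14.3 RPKM at 0, 200 and 400 Gy. Unirradiated worms thus carried mul-1 near the level of the median gene, at rank 6873 of the 14417 by mean RPKM. It ranked 302 at 200 Gy and 419 at 400 Gy. In single libraries the rank was 7066 and 6556, then 262 and 370, then 449 and 409, in the order of the doses.

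Ranked by fold change, mul-1 stood first at 200 Gy against 0 Gy. Its log2 fold change of 5.99 was followed by 5.09 for the next of all 14417 tested genes, and by 4.34 for the next of the 9838 genes with a mean of at least 5 CPM. It also had the highest ratio of the 9838 in each of the 4 pairs of single libraries. The next 4 of those genes were Y41C4A.11 (4.34), the antibacterial factor gene abf-5 (3.93), arf-1.1, of the ADP-ribosylation factor family (3.78), and the collagen gene col-137 (3.60). Their levels ended far apart: arf-1.1 had 99.0 and 148 CPM at 200 Gy but 11.9 and 16.3 CPM at 400 Gy, against 7.04 and 10.9 CPM at 0 Gy. The 400 Gy libraries of arf-1.1 were above both unirradiated ones, with means of 14.1 ± 3.07 and 8.97 ± 2.73 CPM (SD, n = 2).

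At 400 Gy against 0 Gy, mul-1 ranked 18 among all tested genes and 3 among the 9838 with a mean of at least 5 CPM. Ahead of it in the latter group were unc-22, which encodes the giant muscle protein twitchin (4.64), and ZC116.3 (4.48). Close behind were Y113G7C.1 (4.30) and him-4, which encodes the basement membrane protein hemicentin (4.30). These 4 genes have coding lengths of 4485 to 22026 bases, against 780 for mul-1. With the trend on coding length removed, as described below, their log2 fold changes were smaller: 1.96 for unc-22, 2.28 for ZC116.3, 3.16 for Y113G7C.1 and 1.84 for him-4. In single library pairs the rank of mul-1 was 5, 1, 8 and 6. For 400 Gy against 200 Gy, 1545 of the 14417 genes had a lower log2 fold change than mul-1, so its drop was exceeded by that of many genes.

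**Figure D2:**
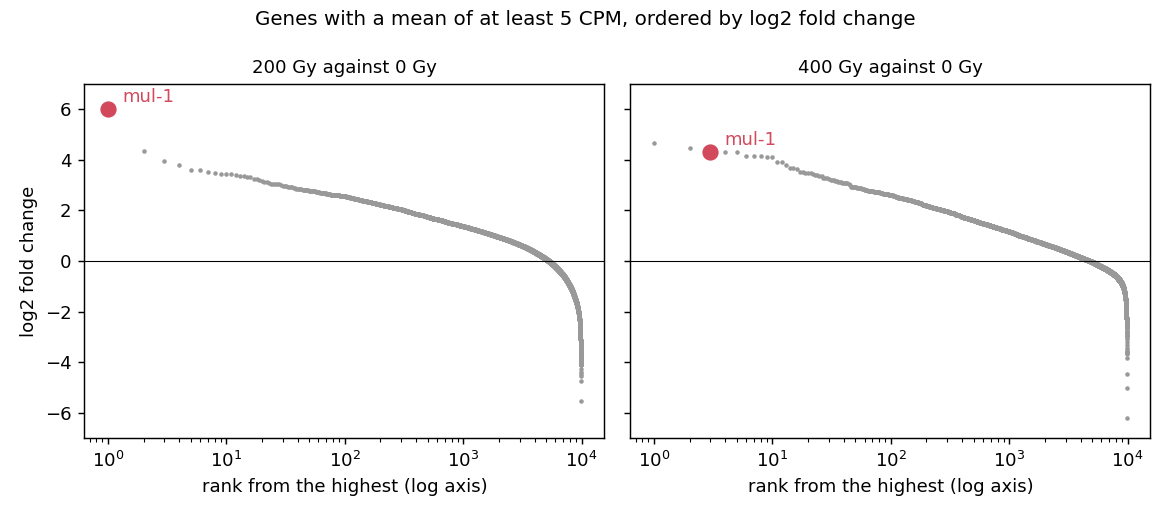
Log2 fold change of the 9838 genes with a mean of at least 5 CPM, ordered from the highest, against rank on a log axis, for 200 Gy against 0 Gy (left) and 400 Gy against 0 Gy (right). The gene mul-1 (large red point) was first at 5.99 on the left and ranked 3 at 4.30 on the right.

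Fold changes in these libraries moved with gene length, which bears on a short gene. Among the 1148 tested genes whose coding length was within 10% of that of mul-1, the median log2 fold change was 0.48 for 200 Gy against 0 Gy, beside 0.0993 for all tested genes. For 400 Gy against 0 Gy it was -0.34 beside -0.0348, and for 400 Gy against 200 Gy -0.64 beside -0.102. Within this length class mul-1 ranked 1 at 200 Gy, where the next gene had 4.21, and 2 at 400 Gy. With a loess trend on coding length removed from every library, its value was 5.65 for 200 Gy and 4.52 for 400 Gy, each against 0 Gy, and it ranked 1 in both comparisons. The drop from 200 to 400 Gy was then smaller, at -1.14.

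The genes whose profile over the 6 libraries lay nearest to that of mul-1 were sought among the 9837 others with a mean of at least 5 CPM. The measure was the root mean square (RMS) difference of log2 CPM centred on each gene's mean. The profile of mul-1 itself spanned 6.44 log2 units. The nearest was clec-265, a C-type lectin gene, at an RMS difference of 1.119. Then came the lectin gene clec-4 (1.15), Y41C4A.11 (1.15), the folate transporter gene folt-2 (1.25) and the glutathione S-transferase gene gst-38 (1.28). The list closed with T22B7.3 (1.29), the cuticle collagen gene col-96 (1.34) and F11C7.2 (1.38). None of these 8 reached the span of mul-1, and the widest, Y41C4A.11, spanned 4.50 log2 units. All 8 were picked for their profile, so their values carry no test, and the points share libraries and scaling.

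These 8 genes differed in what they did above 200 Gy. The lectin gene clec-265 had 34.0 and 38.9 CPM at 0 Gy, 530.3 and 240.2 at 200 Gy, then 169 and 243 at 400 Gy. Its irradiated libraries overlapped, and all 4 stood above both unirradiated ones. For clec-4 the values were 9.42 and 7.07 CPM, then 108 and 55.6, then 95.8 and 74.2, so the 400 Gy level lay within the 200 Gy range. For Y41C4A.11 they were 7.04 and 8.21, then 147 and 164, then 29.6 and 18.8, a profile that fell back further than that of mul-1. The collagen gene col-96 had 38.9 and 52.3, then 379 and 262, then 163 and 172 CPM, in the same order of doses as mul-1 and without overlap. By Pearson's correlation over the 6 libraries, which ignores the size of the change, col-96 reached 0.995 and clec-265 0.984. Only these 2 of the 8 were also among the 8 nearest by correlation.

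**Figure D3:**
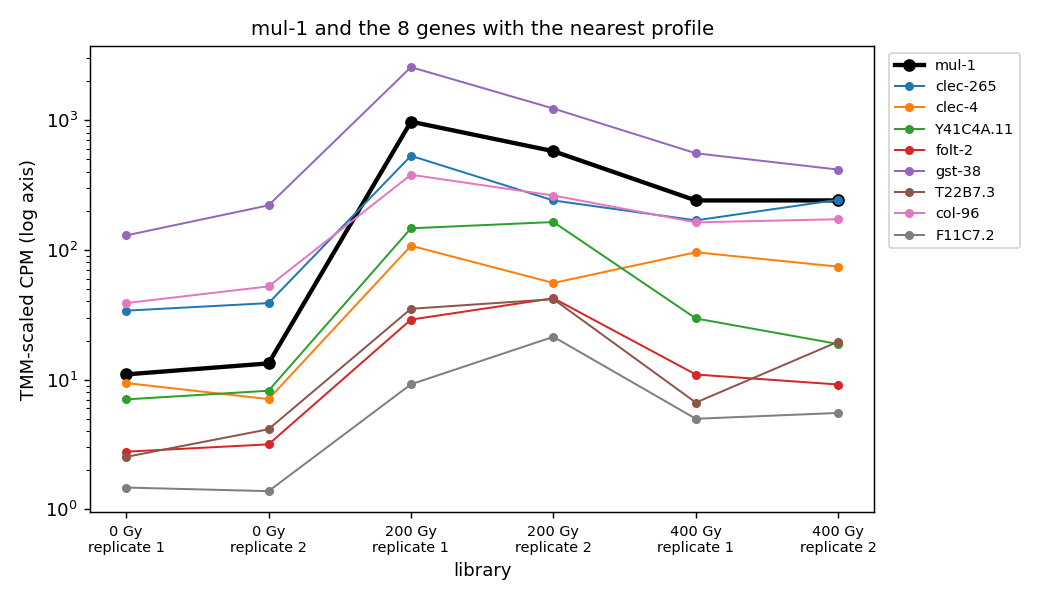
TMM-scaled CPM (log axis) of mul-1 (thick black line) and the 8 genes with the nearest profile in each of the 6 libraries, joined by lines. Heights do not compare genes, since CPM is not per length; in shape, mul-1 makes the largest step between the 0 and 200 Gy libraries, from 10.97 and 13.3 to 972 and 576 CPM.

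The chromosomal neighbours of mul-1 were taken by position and not by their own values, so they could be tested. The choice to look there was made with earlier results of these data known. Within 25000 bases on either side, 20 other genes were listed and 10 had enough counts. Of these 10, 3 rose and 0 fell at 200 Gy against 0 Gy by the edgeR quasi-likelihood test at an adjusted p of 0.05, with a median log2 fold change of 1.37. Over all tested genes 7.03% were called higher in that comparison and 8.71% lower. The 3 that rose were the 3 tested genes closest to mul-1, and all had few reads.

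Distances are between the listed positions, which for mul-1 are its coding limits, so with UTRs the genes can lie closer. On the side of its start codon, 566 bases away and on the same strand, F49F1.7 had 57 and 34 reads at 0 Gy, 62 and 191 at 200 Gy, then 72 and 77 at 400 Gy. Scaled, these were 4.67 and 2.76 CPM, then 8.65 and 18.4, then 6.31 and 6.99, with the 200 Gy libraries highest and far apart. The log2 fold change at 200 Gy was 1.87 ± 0.51 (edgeR adjusted p = 0.0447). On the other side, 981 bases away and on the same strand, F49F1.5 had 2.05 and 0.894 CPM, then 5.86 and 16.4, then 3.07 and 5.72. Its log2 fold change at 200 Gy was 2.92 ± 0.69 (edgeR adjusted p = 0.0335), on 11 to 170 reads per library. Here the first 200 Gy library barely exceeded the second 400 Gy library.

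Next came F49F1.1, 2287 bases away on the other strand, which the current annotation names drd-50. It had 3.77 and 1.87 CPM at 0 Gy, 12.4 and 11.6 at 200 Gy, then 2.98 and 5.63 at 400 Gy. The 200 Gy libraries were close to each other and above the other 4, with a log2 fold change of 2.08 ± 0.52 (edgeR adjusted p = 0.0377). Beyond these, F49F1.18 had a log2 fold change of 2.18 ± 0.78 that did not pass (edgeR adjusted p = 0.0859). It did pass by the DESeq2 Wald test (adjusted p = 0.0462). At 200 Gy against 0 Gy, 4 of the 10 tested window genes were higher at an unadjusted edgeR p under 0.05, and 4 by the Wald test. Of all 14417 genes, 2805 and 1566 were. The length correction lowered the share of all genes called higher at 200 Gy to 2.14%, with a median of 0.0994. With it the closest 3 no longer passed, at 1.35 (adjusted p = 0.0979) for F49F1.7, 2.06 (adjusted p = 0.0613) for F49F1.5 and 1.71 (adjusted p = 0.0692) for F49F1.1. Without either 0 Gy library none of them passed, and in that setting 0 of all genes did. Without the second 200 Gy library F49F1.7 was at 1.11 (adjusted p = 0.203) and F49F1.5 at 1.88 (adjusted p = 0.0725). Of 16 alternative fits, F49F1.7 passed in 6, F49F1.5 in 12 and F49F1.1 in 13. The call of F49F1.7 was also lost with upper-quartile scaling (adjusted p = 0.0528), the filter of 5 CPM (0.053), ribosomal RNA rows removed (0.0535) and only the 4 libraries compared (0.0719). It was lost as well without the first (0.0623) or second (0.0674) 400 Gy library.

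No tested gene of the window passed in the other comparisons, where 0.0486% of all genes were called at 400 Gy against 0 Gy (0.0416% higher, 0.00694% lower) and 31.2% at 400 Gy against 200 Gy. By edgeR at an unadjusted p under 0.05, 1 was higher and 2 were lower at 400 Gy against 0 Gy, and 2 were lower at 400 Gy against 200 Gy. Over all genes these shares were 12.1% higher and 10.4% lower, then 23.2% lower. The DESeq2 Wald test called 1 lower in each, beside 2.82% and 16.3% of all genes. The largest drop at 400 Gy was that of C35B1.7, at 5.73 and 6.26 CPM in the 0 Gy libraries and 0.263 and 1.36 in the 400 Gy libraries (log2 fold change -2.87 ± 0.70, edgeR adjusted p = 0.0971). Of 14 other genes whose sequence name starts with F49F1, as that of mul-1 does, 7 were tested, and the 3 closest to mul-1 were those that rose at 200 Gy by edgeR.

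**Figure D4:**
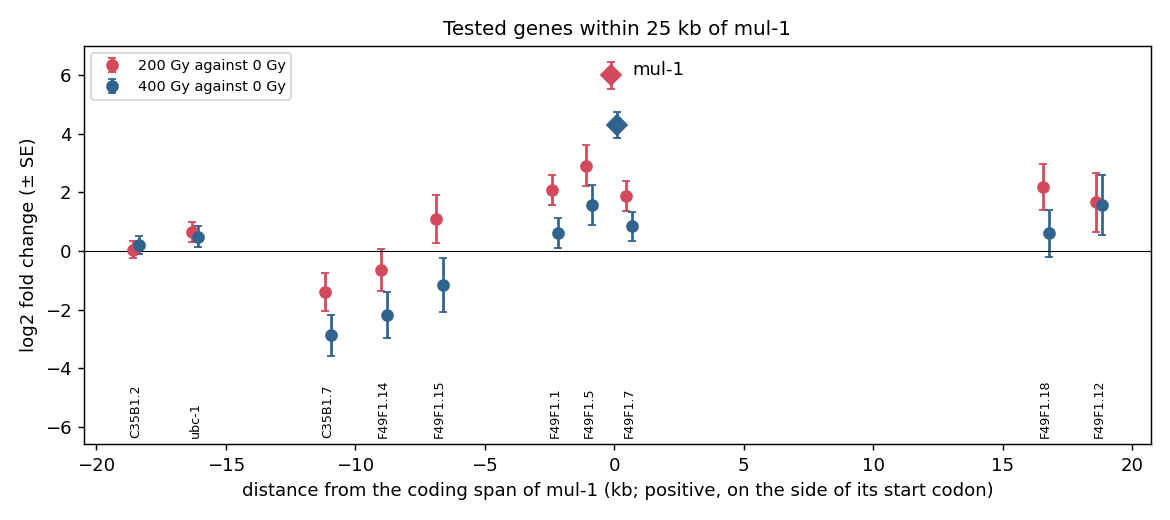
Log2 fold change (± SE) of mul-1 (diamonds) and the 10 tested genes within 25 kb, against distance from its coding span in kb, for 200 Gy (red) and 400 Gy (blue) against 0 Gy. The closest 3 genes lie between 1.87 and 2.92 at 200 Gy, all below mul-1 at 5.99.

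Sugar chains are added to mucin-like proteins by polypeptide N-acetylgalactosaminyltransferases, encoded in the worm by gly-3 to gly-11, and the second sugar by a core 1 galactosyltransferase, encoded by C38H2.2. All 10 of these genes were tested. At 200 Gy against 0 Gy 2 rose and 0 fell, with a median log2 fold change of -0.07, against 0.0993 for all tested genes, of which 7.03% were called higher and 8.71% lower. With the length correction the median was 0.54, against 0.0994 for all genes, and again 2 rose and 0 fell (2.14% and 2.23% of all genes). C38H2.2 had 32.8 and 31.5 CPM at 0 Gy, 102 and 107 at 200 Gy, then 55.4 and 102 at 400 Gy. Its log2 fold change at 200 Gy was 1.70 ± 0.37 (edgeR adjusted p = 0.0279), and the 400 Gy libraries were spread between the other groups. For gly-8 the values were 74.8 and 76.8 CPM, then 163 and 242, then 65.6 and 87.6. It rose at 200 Gy (1.42 ± 0.36, edgeR adjusted p = 0.0375) and fell from 200 to 400 Gy (-1.40 ± 0.36, edgeR adjusted p = 0.021), to values around the unirradiated ones. The call of gly-8 at 200 Gy was narrowly lost with the length correction (1.495, adjusted p = 0.0503), and both its calls with only the 4 libraries compared (adjusted p = 0.0578 and 0.0544). Both were also lost when any 1 library other than the first 200 Gy library was left out, with log2 fold changes of 1.00 to 1.42 at 200 Gy and -1.43 to -0.97 from 200 to 400 Gy.

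Of the other enzymes, gly-10 rose from 200 to 400 Gy, from 52.4 and 25.9 to 151 and 109 CPM (1.73 ± 0.47, edgeR adjusted p = 0.0255). It and gly-8 were the 2 of the 10 called in that comparison, 1 in each direction, where 15% of all genes were called higher and 16.2% lower. With the length correction this was 0.63 and did not pass (adjusted p = 0.355), and without the first 400 Gy library it was 1.47 (adjusted p = 0.131). At 200 Gy, gly-4 had a log2 fold change of 1.05 ± 0.32 (edgeR adjusted p = 0.0578) and gly-11 one of -1.35 ± 0.39 (edgeR adjusted p = 0.0513), neither past the threshold. Both lay close to it: gly-4 passed with the length correction (1.63, adjusted p = 0.0412), upper-quartile scaling (0.0385) and the filter of 5 CPM (0.0436). For gly-11 the length correction gave -0.77 (adjusted p = 0.251), while it passed with DESeq2 size factors (0.0435), the DESeq2 Wald test (0.0248), ribosomal RNA rows removed (0.039) and without the second 200 Gy library (0.0394). The other 5 enzymes, gly-3, gly-5, gly-6, gly-7 and gly-9, had log2 fold changes of -0.20 to 0.03 at 200 Gy. At 400 Gy against 0 Gy no enzyme passed by edgeR, where only 0.0486% of all genes did, and the median was 0.24. At an unadjusted p under 0.05, 2 were higher, and 1 was higher by the DESeq2 Wald test. Of all genes 12.1% were higher at the unadjusted cut and 6.68% by the Wald test.

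A list of 60 defence effectors, most of them known from the intestine, was set beside mul-1, and 53 were tested. It also holds nlp-29, nlp-31, cnc-2 and cnc-4, antimicrobial peptide genes known from the epidermis, of which nlp-31 rose at 200 Gy (edgeR adjusted p = 0.0425) and all 4 fell from 200 to 400 Gy (edgeR adjusted p = 0.00419 to 0.0416). At 200 Gy against 0 Gy 20 of the 53 rose and 0 fell, beside 7.03% higher over all genes, with a median of 1.26 on the log2 scale. At 400 Gy against 0 Gy none passed by edgeR, where only 0.0486% of all genes did, and the median was -0.70. At an unadjusted p under 0.05, 7 were higher and 16 lower, beside 12.1% and 10.4% of all genes. By the DESeq2 Wald test 5 were called higher and 11 lower, beside 6.68% and 2.82% of all genes. From 200 to 400 Gy 30 fell and 1 rose, where 16.2% of all genes were called lower and 15% higher. Of the 53, 30 had a positive log2 fold change at 200 Gy and a negative one at 400 Gy against 0 Gy, while 17 were positive at both doses, as mul-1 was. How many of all genes had these signs was not counted. The 1148 tested genes close to mul-1 in coding length had medians of 0.48 and -0.34, so the median short gene had the first pattern too. With the length correction the effector medians were 0.80 and -0.42, beside 0.0994 and -0.0838 for all genes.

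The effectors named here are those with the smallest p in a comparison. The lectin gene clec-4, also near mul-1 in profile, had the highest log2 fold change of the list in both comparisons with 0 Gy, 3.30 at 200 Gy and 3.36 at 400 Gy, below the 5.99 and 4.30 of mul-1. The lectin gene clec-85 had 158 and 165 CPM at 0 Gy, 906 and 822 at 200 Gy, then 127 and 128 at 400 Gy. It rose at 200 Gy (2.42 ± 0.34, edgeR adjusted p = 0.0213) and fell from there to 400 Gy (-2.76 ± 0.35, edgeR adjusted p = 0.00322). Its 400 Gy libraries thus lay below the unirradiated ones, unlike those of mul-1.

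Among the lysozymes, lys-1 had 884 and 968 CPM at 0 Gy, 4928 and 6381 at 200 Gy, then 1051 and 1299 at 400 Gy (2.61 ± 0.40 at 200 Gy, edgeR adjusted p = 0.0213). For lys-2 the values were 484 and 563, then 3159 and 4103, then 642 and 833 CPM (2.79 ± 0.40 at 200 Gy, edgeR adjusted p = 0.0213). Both stood slightly above the unirradiated libraries at 400 Gy. The lysozyme gene lys-5 went from 20.9 and 18.97 CPM at 200 Gy to 1.49 and 2.18 at 400 Gy (-3.44 ± 0.41, edgeR adjusted p = 0.00321), below its 10.7 and 10.3 CPM at 0 Gy. The infection-response gene irg-3 and the gene dod-23, known as downstream of DAF-16, both fell from 200 to 400 Gy, by 2.58 and 2.75 on the log2 scale.

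**Figure D5:**
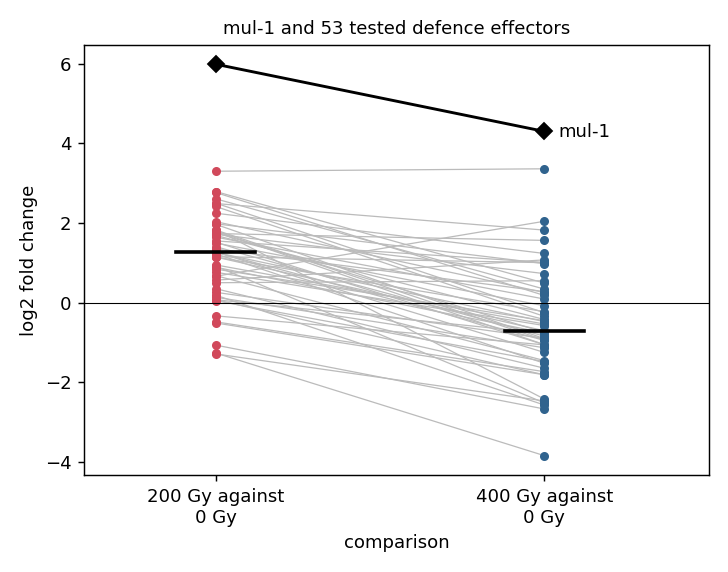
Log2 fold change against 0 Gy of the 53 tested defence effectors (points joined by grey lines; bars, medians) and of mul-1 (black diamonds) at 200 and 400 Gy. The medians are 1.26 and -0.70, and mul-1 lies above every member at both doses, with clec-4 next at 3.30 and 3.36.

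Both the count and the median of the effectors changed with the length correction, and the median also moved with single libraries. These genes are short, with a median coding length of 714 bases, and with the length correction 10 rose at 200 Gy (median 0.80) and 15 fell from 200 to 400 Gy (median -1.07). The correction also lowered the shares over all genes, to 2.14% higher at 200 Gy and 3.07% lower from 200 to 400 Gy. With single libraries left out, the effector median at 200 Gy against 0 Gy ran from 1.014 to 1.287. That of all genes ran from -0.174 to 0.157. From 200 to 400 Gy the effector median ran from -1.991 to -1.318, beside -0.104 to 0.172 for all genes. Calls of effectors in these fits were not compared, since a dose then has only a single library.

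The regulators of these defence pathways formed a list of 27 genes, all tested. At 200 Gy against 0 Gy 0 rose and 5 fell (median -0.72), beside 8.71% of all genes called lower. From 200 to 400 Gy 10 rose and 0 fell (median 1.06), beside 15% of all genes called higher. At 400 Gy against 0 Gy none passed by edgeR (median 0.48), where only 0.0486% of all genes did. At an unadjusted p under 0.05, 9 were higher, and 3 by the DESeq2 Wald test, beside 12.1% and 6.68% of all genes. The gene nsy-1, which encodes the MAP kinase kinase kinase of the p38 pathway, had 33.8 and 33.0 CPM at 0 Gy, 7.95 and 6.64 at 200 Gy, then 60.8 and 66.998 at 400 Gy. It fell at 200 Gy (-2.20 ± 0.31, edgeR adjusted p = 0.0213), with no overlap between doses. The same order was seen for sma-9, a cofactor of the DBL-1 (TGF-beta) pathway, at 35.4 and 46.5, then 8.23 and 7.99, then 117 and 112 CPM.

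The regulators are longer, with a median coding length of 1599 bases, and none of the 27 was called with the length correction, under which 2.23% of all genes were called lower at 200 Gy and 2.05% higher from 200 to 400 Gy. The log2 fold change at 200 Gy was then -0.72 for nsy-1 and -0.51 for sma-9, against -2.20 and -2.33 without it. The receptor gene fshr-1 went from -1.64 to -0.59, and nipi-3, which encodes a Tribbles-like kinase, from -1.18 to -0.50. The insulin receptor gene daf-2 rose from 200 to 400 Gy by 3.61 ± 0.55 on the log2 scale (edgeR adjusted p = 0.00469), and by 0.64 with the correction (adjusted p = 0.351). At 200 Gy against 0 Gy, mul-1 went from 5.99 to 5.65 under the same correction. Single libraries also moved the median of the 27 at 200 Gy against 0 Gy. It was -1.09 without the first 200 Gy library and -0.49 without the second, beside -0.174 and -0.0667 for all genes.

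The table comes from whole worms, so the cell types that carried mul-1 were not measured, and marker lists were read beside it. The 12 tested intestine markers summed to 6378 and 8216 CPM at 0 Gy, 20144 and 9723 at 200 Gy, then 9241 and 8864 at 400 Gy. The sum, like mul-1, was highest in the first 200 Gy library, where the aspartic protease gene asp-1 alone had 13255 CPM. Of the 12, 1 rose at 200 Gy, the lysozyme gene lys-8, which is also in the effector list, and none fell (median 0.79), beside 7.03% of all genes called higher and 8.71% lower. The intestinal transcription factor gene elt-2 had 7.53 and 14.6 CPM at 0 Gy, 14.6 and 13.96 at 200 Gy, then 21.7 and 19.1 at 400 Gy, and the esterase gene ges-1 had 26.2 to 47.6 CPM over all libraries. At 400 Gy against 0 Gy no intestine marker passed by edgeR (median 0.44), where only 0.0486% of all genes did. At an unadjusted p under 0.05, 3 were higher, and 1 by the DESeq2 Wald test, beside 12.1% and 6.68% of all genes. From 200 to 400 Gy 1 rose and 1 fell, beside 15% and 16.2% of all genes.

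Some markers of other tissues also passed the test, and the shares of all genes called by edgeR stand beside their counts: 7.03% higher and 8.71% lower at 200 Gy against 0 Gy, 0.0416% and 0.00694% at 400 Gy against 0 Gy, and 15% and 16.2% from 200 to 400 Gy. At 200 Gy against 0 Gy, 1 of 9 tested hypodermis markers rose and 4 fell, 2 of 7 pharynx markers rose, 2 of 8 body wall muscle markers rose and 1 fell, 1 of 8 sperm markers rose, and 2 of 8 neuron markers rose and 2 fell. None of 10 oocyte and germline markers passed by edgeR, with 1 lower at an unadjusted p under 0.05 and 1 by the DESeq2 Wald test, beside 17.7% and 12.4% of all genes. At 400 Gy against 0 Gy 2 pharynx markers rose and no marker of the other 5 tissues passed by edgeR. At an unadjusted p under 0.05, 6 pharynx, 6 muscle, 8 sperm and 1 neuron marker were higher, 1 neuron marker was lower and hypodermis had 2 of each. The Wald test called 5 pharynx, 6 muscle and 5 sperm markers higher and 2 hypodermis markers in each direction. At these cuts 12.1% of all genes were higher and 10.4% lower unadjusted, and 6.68% higher and 2.82% lower by the Wald test. From 200 to 400 Gy 4 pharynx, 4 hypodermis, 4 body wall muscle, 3 neuron, 1 sperm and 1 germline markers rose, and 1 neuron marker fell. With the length correction 1 pharynx and 1 sperm marker rose, 0 hypodermis, body wall muscle, neuron or germline markers did, and none fell. Of all genes 2.05% were then called higher and 3.07% lower. The muscle markers are long, with a median coding length of 4255.5 bases. Their median log2 fold change from 200 to 400 Gy was 1.61, and -0.26 with the correction. The summed level of the hypodermis markers was 951 and 1149 CPM at 0 Gy, 3862 and 3548 at 200 Gy, then 2518 and 1904 at 400 Gy. The cuticle collagen gene col-19 made up most of that sum, with 566 and 714, then 3742 and 3444, then 2376 and 1619 CPM. It was the 1 of 9 that was higher at 200 Gy than at 0 Gy; the median log2 fold change of the list was -1.69, and noah-1 (-3.95), fbn-1 (-4.12) and qua-1 (-4.27) were among the 4 that fell. Body wall muscle markers summed to 1644 and 2314, then 5409 and 4249, then 7815 and 7693 CPM, and pharynx markers to 34.5 and 34.6, then 62.8 and 118, then 208 and 203 CPM. Sperm markers summed to 17.7 to 20.6, then 30.5 to 93.8, then 56.8 to 117 CPM, and neuron markers to 292 to 450.2 CPM over all libraries. Oocyte and germline markers summed to 4107 and 1583, then 4682 and 892, then 9182 and 4571 CPM, with the first library of each dose above the second. Their median log2 fold change was 0.06 at 200 Gy against 0 Gy and 1.15 from 200 to 400 Gy, and it hung on single libraries. Without the first 200 Gy library it was -1.79 and 2.996, and without the second 0.67 and 0.51. No tested marker was at 0 in any library. The part of these shifts in the level of mul-1 was not tested.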

How the data were processed

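The deposited table gives, per gene and library, raw read counts and RPKM values made by the authors, with a position, a strand and a length. The submitters' processing notes name the tools bcl2fastq and TopHat2 (version 2.0.13) and the genome build WBcel235, but no read counter or strand setting. The deposited RPKM is the count per length and total count.

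Tests on counts used edgeR 4.0.16 under R 4.3.3, with DESeq2 1.42.0 as an alternative (edgeR: quasi-likelihood test, TMM scaling, filterByExpr, all 6 libraries in 1 fit, 3 residual degrees of freedom), with p-values adjusted by Benjamini-Hochberg over all 14417 genes kept and a threshold of 0.05. TMM factors ran from 0.751 to 1.24 and the common biological coefficient of variation was 35.1%. Replicates differed beyond counting noise (chi-square per degree of freedom 64.3, 100 and 120 at 0, 200 and 400 Gy), so none was a copy of another. Steps were tested on simulated counts. The SE is the log2 fold change over the root of its F statistic. Profiles used log2 CPM with a prior count of 2. The length correction removed a loess trend (span 0.3) of each library on the log2 of the deposited length, called coding length here.

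The gene, the lists (O-glycosylation enzymes, defence effectors, defence regulators and 7 marker lists), the rule for named genes and the alternatives were chosen with earlier results of these data known. Named were the 8 nearest profiles, the 5 largest rises at each dose among genes of at least 5 CPM, the chromosomal neighbours, and from each list all members of up to 12 tested, else the 4 with the smallest p past the threshold per comparison; not all are printed. A planned group of serine- and threonine-rich proteins was not analysed here.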

Additional observations from a re-analysis of the deposited data

How the results depend on the processing

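The gene mul-1 ranked first at 200 Gy against 0 Gy in all 16 alternative fits, and its log2 fold changes kept their sign in all 3 comparisons. Against 0 Gy, its value at 400 Gy was 4.52 with the length correction; for 400 Gy against 200 Gy it was -1.14 with that correction and -1.08 with correction and replicate block. With single libraries left out it ran from 5.38 to 6.22 (200 Gy against 0 Gy), 4.17 to 4.43 (400 Gy against 0 Gy) and -1.90 to -1.05 (400 Gy against 200 Gy). Its rank at 400 Gy, 3 among genes of at least 5 CPM, was 4 with upper-quartile scaling, the 5 CPM filter or the replicate block, 1 with the length correction with or without block, and 3 to 8 with a library left out. Upper-quartile scaling moved the median of all genes from 0.0993 to 0.195, from -0.0348 to -0.121 and from -0.102 to -0.285, and relative to the median mul-1 stood at 5.85 in place of 5.89 at 200 Gy.

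The number of genes called depended strongly on the processing. For 200 Gy against 0 Gy, 2269 were called, 6444 with the replicate block, 631 with the length correction, 4668 with both, and 0 at a threshold of 0.01 (5358 at an unadjusted p under 0.05; DESeq2 Wald test at 0.05, 3347). Left-out libraries gave 0 to 4708: 0 without either 0 Gy library by edgeR (3229 and 3011 at an unadjusted p under 0.05), 4708 without the first 200 Gy library and 1344 without the first 400 Gy library. The split into higher and lower calls, 1013 and 1256, became 708 and 1459 without ribosomal RNA rows and 560 and 1172 with only the 4 libraries compared; higher calls outnumbered lower ones with upper-quartile scaling (1096 and 1059), the replicate block (3328 and 3116) and length correction with block (2495 and 2173). For 400 Gy against 0 Gy, 7 were called, 273 with DESeq2 size factors (194 higher, 79 lower), 1369 by the Wald test, 230 without a filter, 3586 with the replicate block, 257 with the length correction, 2527 with both, 2145 with only the 4 libraries compared, and 0 at a threshold of 0.01 (3244 unadjusted). Left-out libraries gave 0 to 2438, with 0 by edgeR without any one of the 0 or 400 Gy libraries (1402 to 2350 unadjusted), 2304 and 2438 without the first or second 200 Gy library. For 400 Gy against 200 Gy, 4495 were called, 7640 with the replicate block, 739 with the length correction, 1773 at a threshold of 0.01, and 1332 (without the first 400 Gy library) to 5837 (without the first 200 Gy library). Causes were not tested.

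Over 48 values of named genes and 767 alternatives, 577 kept call and direction, 103 lost a call, 87 gained one and 0 changed sign. Many of these values are of genes picked in these data for their profile, their rise or a small p. Kept directions were favoured by that choice and carry no weight as support. Same-numbered libraries deviated together (correlations of replicate differences across genes 0.479, 0.375 and 0.596), but with 2 pairs per comparison and no label that ties them the numbers were not taken as pairs. With the replicate block some genes given as not passing did pass by edgeR, among them, at 200 Gy against 0 Gy, gly-4 (1.05, adjusted p = 0.00888), gly-11 (-1.36, 0.00851) and F49F1.18 (2.04, 0.0232). Of the 8 nearest profiles, 8 were shared with a prior count of 0.5 and 2 with Pearson's correlation. With few reads, as in the neighbours of mul-1, counting error limits what the fits can show.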
